A study of Mus musculus with 2 samples.

Results

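Aerocytes are the large, thin capillary cells of the lung alveolus over which gas is exchanged, and they lie against alveolar type 1 cells in a net that also holds the smaller general capillary cells. The 10 genes described here are 9 that mark aerocytes (Car4, Ednrb, Fibin, Apln, Tbx2, Chst1, Kitl, Rgs6 and Tmeff2) and Cda, which encodes cytidine deaminase. They were chosen by their measured UMIs in these same libraries, and are 10 of the 32285 genes in the deposited matrices. The question they address is whether aerocyte identity holds when endothelial cells lose Dnmt1, the enzyme that copies DNA methylation onto new strands during replication.

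The data are 10x Genomics single-cell RNA-seq of sorted live CD31+ CD45- cells from tumors of YUMMER1.7, a mouse melanoma line, with 1 library per group and the tumors of 3 female mice, aged 8 to 10 weeks, pooled in each. Dnmt1iECKO mice carried Cdh5CreERT2, Dnmt1fl/fl and ZsGreenlsl/lsl, so that the Cre acts after tamoxifen in cells that use the Cdh5 promoter, whereas the control is labelled C57BL/6 and is described in the study's methods as carrying the Cre and the reporter with intact Dnmt1. The labels place the tumors under the skin, whereas the study's methods describe lung tumors seeded through the tail vein, and cells with markers of the alveolar lining were present in both libraries. The labelled cell type is melanoma cells, and the melanocyte genes Pmel and Mlana were at or below 2.05 and 8.77 CPM (the UMIs of a gene in 1e6 UMIs of the same cells) in every cell class found in both libraries. Which cells are tumor cells was not tested, and a cluster of 125 control and 199 Dnmt1iECKO very deep cells led by Hmga2, with little Cdh5, was left unnamed. Hmga2, at 1869 CPM in control and 1767 CPM in Dnmt1iECKO there, is in the melanoma marker list used for naming. Fewer markers of that list were found than the 3 that naming asked for. With 1 library per group there is no replicate check and no test, and every interval in parentheses is a 95% interval that covers counting error only.

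The control matrix held 9301 cells with 123830489 UMIs and the Dnmt1iECKO matrix 9522 cells with 141433493 UMIs, of which 7764 and 7839 cells were used. The libraries shared 29 barcodes, 8 of them among endothelial cells. A cell counted as endothelial when it held a UMI of Cdh5 or of Pecam1 and none of Ptprc, the leukocyte marker. They numbered 5537 in control, at a median of 10170 UMIs, and 2408 in Dnmt1iECKO, at 10790. Ratios are log2 of Dnmt1iECKO over control. Over the endothelial cells 8.92% of 14099 genes were past 1.5-fold higher and 2.31% past 1.5-fold lower in Dnmt1iECKO, and the median log2 ratio of all genes was 0.00081. Dnmt1 itself was 51.4 CPM in control and 37.3 CPM in Dnmt1iECKO endothelial cells, a log2 ratio of −0.46, and 64.8 and 61.3 CPM in T cell-like cells.

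The set of RefSeq start regions used here (GRCm38.p6) holds 9 of the 10 genes, each as 250 bases before and 50 after the start, and has no entry for Tbx2. Those of 3 genes are shown, with the CG letters, the sites that Dnmt1 can methylate, in capitals: Cda and Fibin because their ratios were the lowest, and Chst1 because its ratio was nearest to 0 and its window held the fewest CG. They lie at chr4:138367906-138368205 (minus strand), chr2:110362944-110363243 (minus strand) and chr2:92600867-92601166 (plus strand).
Cda: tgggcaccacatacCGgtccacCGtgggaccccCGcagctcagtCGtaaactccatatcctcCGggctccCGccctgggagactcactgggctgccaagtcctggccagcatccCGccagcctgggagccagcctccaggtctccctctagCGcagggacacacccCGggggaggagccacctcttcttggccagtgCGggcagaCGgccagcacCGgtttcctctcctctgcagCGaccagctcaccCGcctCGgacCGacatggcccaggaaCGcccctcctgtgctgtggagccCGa
Fibin: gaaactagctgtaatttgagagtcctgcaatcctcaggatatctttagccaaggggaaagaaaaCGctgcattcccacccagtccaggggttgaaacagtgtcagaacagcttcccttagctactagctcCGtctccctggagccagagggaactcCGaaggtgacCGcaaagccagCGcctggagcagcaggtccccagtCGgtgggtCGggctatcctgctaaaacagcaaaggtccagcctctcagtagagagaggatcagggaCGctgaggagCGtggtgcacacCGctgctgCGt
Chst1: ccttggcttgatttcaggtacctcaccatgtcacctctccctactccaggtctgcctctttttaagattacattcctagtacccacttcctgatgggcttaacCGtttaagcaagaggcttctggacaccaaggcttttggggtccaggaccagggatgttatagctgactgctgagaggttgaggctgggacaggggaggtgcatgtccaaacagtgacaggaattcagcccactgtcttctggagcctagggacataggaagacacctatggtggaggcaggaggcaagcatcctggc
The Cda window held 18 CG, the Fibin window 11 and the Chst1 window 1, against a median of 7 (quartiles 3 and 20) over 32851 RefSeq promoters of the same length. Car4, Ednrb and Apln held 15 each, Rgs6 21, Tmeff2 24 and Kitl 28. Methylation was not measured in these data. A RefSeq start need not be the first of a gene: against the GENCODE positions given next, it lies 37 bases inside Cda and 190 inside Fibin, but 1410 inside Chst1, 26876 inside Tmeff2 and 29207 inside Rgs6, so the windows of the last 3 describe a start within the gene. In the GENCODE annotation of the same build, Car4 lies at chr11:84957786-84966044, Tbx2 at chr11:85832551-85841948, Chst1 at chr2:92599707-92615250, Kitl at chr10:100015630-100100416, Rgs6 at chr12:82588292-83162056 and Tmeff2 at chr1:50900647-51187270, all on the plus strand. On the minus strand are Ednrb at chr14:103814625-103844402, Fibin at chr2:110360917-110363183, Apln at chrX:48025146-48034853 and Cda at chr4:138338424-138367992. The letters CCGGAAG of ETS factors, searched on both strands, occurred once in Car4 and once in Kitl and in 8.86% of all promoters. Those of the hypoxia response, ACGTG, occurred once in Car4 and 3 times in Tmeff2 and in 19.6% of all promoters. The T-box letters GGTGTGA occurred in none of the 9 windows and in 3.98% of all promoters.

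Aerocyte-marked cells were present in both libraries and made up a smaller share of the endothelium in Dnmt1iECKO. After each cell had been thinned to 2000 UMIs, at least 3 of the 9 genes were detected in 1695 of 5173 control cells, or 32.8% (31.5 to 34.1), and in 582 of 2231 Dnmt1iECKO cells, or 26.1% (24.3 to 28.0). The log2 ratio of these shares was −0.33 (−0.47 to −0.19). At full depth, where deeper cells detect more, the shares were 52.4% and 44.1%. The share with at least 5 of the genes was 24.4% (23.2 to 25.6) in control, and in Dnmt1iECKO it was 17.2% (15.7 to 18.8), a log2 ratio of −0.50. Cells with none of the 9 made up 23.7% and 28.9%, and cells with 1 or 2 made up 43.5% and 45.0%.

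**Figure D1:**
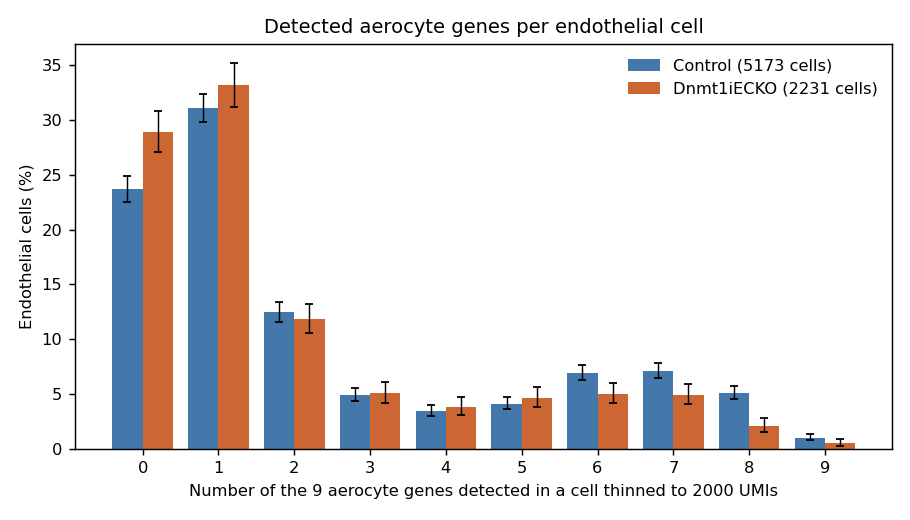
Percent of endothelial cells, thinned to 2000 UMIs each, by how many of the 9 aerocyte genes were detected, in the control library (blue, 5173 cells) and the Dnmt1iECKO library (orange, 2231 cells), with exact 95% binomial intervals as bars. Both libraries had a low point at 4 genes and a higher value above it, at 7 genes in control (7.13%) and at 6 in Dnmt1iECKO (5.02%). In Dnmt1iECKO the intervals at 4 and at 6 genes overlapped.

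The distribution had 2 clear humps in control, whereas in Dnmt1iECKO the second was slight. In control it rose from a low point of 3.46% (2.98 to 4.0) at 4 genes to 7.13% (6.45 to 7.87) at 7. In Dnmt1iECKO it went from 3.81% (3.05 to 4.69) at 4 genes to 5.02% (4.15 to 6.01) at 6. These 2 Dnmt1iECKO intervals overlapped, and 5.065% of Dnmt1iECKO cells had 3 genes. All 9 genes were detected in 53 control cells (1.02%) and 11 Dnmt1iECKO cells (0.493%). In T cell-like and B cell-like cells, which should lack these genes and had medians of 7078 to 8840 UMIs, no single gene of the 9 was detected in over 1.60% of thinned cells.

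The 10 genes were left out of the clustering but not of the naming. The list that named 2 clusters aerocyte-like holds 13 markers, 9 of them the genes described here, and 6 and 5 of these 9 were among the 10 leading genes of the clusters, so their overlap with the class is largely set by that choice. They held 1238 control and 402 Dnmt1iECKO cells. Of the endothelial cells, 1219 of 5537 in control and 379 of 2408 in Dnmt1iECKO (15.7%) lay in them. Of their thinned cells, 99.3% and 98.4% had at least 3 of the 9 genes, and they supplied 70.2% of those cells in control and 62.7% in Dnmt1iECKO. The next largest suppliers were a platelet-like cluster with Cdh5, at 7.14% and 9.79%, general capillary-like cells, at 5.19% and 4.98%, and a shallow unnamed cluster led by AY036118, at 3.72% and 6.19%. General capillary-like cells also made up less of all endothelial cells, 26.2% in control and 22.1% in Dnmt1iECKO. Vein-like cells made up more, 3.43% and 7.93%, as did artery-like cells, 1.90% and 3.28%, and fibroblast-like cells, 1.84% and 4.15%.

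The 9 genes were detected together in the same cells in both libraries. They were chosen as aerocyte markers by their UMIs in these libraries, so this is in part set by that choice. Each gene was compared between cells with at least 3 of the other 8 genes and cells with none of them, so that a gene did not choose the cells its own level was read in. Chst1, a sulfotransferase that acts on sugar chains, was detected in 26.1% of control and 25.7% of Dnmt1iECKO cells that had at least 3 of the others, and in 0.568% and 0.616% of those with none. Fibin, the fin bud initiation factor homolog, was detected in 62.6% and 49.9% of the former and in 1.53% and 1.23% of the latter. For 8 genes the former share was at least 6.78 times the latter in each library. Kitl, the ligand of the receptor Kit, was the exception, with a ratio of 1.93 in control and 2.10 in Dnmt1iECKO, and 50.7% and 45.8% of cells with none of the others also held it. Among the 9 genes this ratio of shares differed most between the libraries for Tbx2, Ednrb and Rgs6. It was 19.7 in control and 9.60 in Dnmt1iECKO for Tbx2, 32.9 and 23.1 for Ednrb, and 24.4 and 32.0 for Rgs6.

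Within these cells all 9 genes were lower in Dnmt1iECKO, each by less than 1.5-fold. The median log2 ratio was −0.29 (−0.35 to −0.27 as the median of the bounds), and all 9 intervals lay below 0. At such counts these intervals are narrow. The share of all genes with an interval below 0, or with levels whose intervals do not overlap, was not computed. Of all 11064 genes with at least 100 UMIs in cells with at least 3 of the 9 genes, 3.31% were past 1.5-fold lower and 3.18% past it higher, and their median was −0.01. None of the 9 was past 1.5-fold there, whereas over all endothelial cells 8 of the 9 were, with a median of −0.76. They ranged from −1.05 for Fibin (225.5 and 108.7 CPM) to −0.55 for Chst1 (50.6 and 34.5 CPM). Which of these cells carry the genes also differed, since 94.4% of control and 89.4% of Dnmt1iECKO endothelial UMIs of Ednrb, and 67.2% and 54.6% of those of Kitl, lay in cells with at least 3 of the other 8.

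Of the receptor and the ligands, Ednrb, the endothelin B receptor, stood in cells with at least 3 of the other genes at 1363 CPM (1348 to 1379) for control against 1122 CPM (1098 to 1145) for Dnmt1iECKO, a log2 ratio of −0.28 (−0.32 to −0.25). Apln, the ligand of the apelin receptor, stood at 391.7 CPM (383.6 to 399.9) against 291.0 CPM (279.5 to 302.8), a log2 ratio of −0.43 (−0.49 to −0.36). Kitl stood at 2723 CPM (2700 to 2746) against 2225 CPM (2190 to 2260), a log2 ratio of −0.29 (−0.32 to −0.27). None of these 3 pairs of intervals overlapped.

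Car4, a carbonic anhydrase held on the cell surface, stood at 2094 CPM (2074 to 2113) in control against 1815 CPM (1785 to 1847), a log2 ratio of −0.21 (−0.23 to −0.18). For the T-box transcription factor Tbx2, control stood at 315.6 CPM (308.4 to 323.0), Dnmt1iECKO at 260.5 CPM (249.5 to 271.7) and the ratio at −0.28 (−0.35 to −0.21). Rgs6, a regulator of G protein signalling, had a ratio of −0.32 (−0.36 to −0.28), from 845.2 CPM (833.2 to 857.3) in control against 676.6 CPM (659.0 to 694.6). Here too the control interval lay above that of Dnmt1iECKO for each gene. Rgs6 overlaps 2 genes of the matrices on the opposite strand and Tmeff2 overlaps 3 genes, 2 of them on its own strand, so reads could be split there, and whether counting used strand is not given in the sources used here.

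The lowest ratio of the 9 was that of Fibin, at −0.56 (−0.62 to −0.51), with 686.7 CPM (676.0 to 697.5) in control against 464.3 CPM (449.7 to 479.2) in Dnmt1iECKO. Tmeff2, a transmembrane protein with an EGF-like domain, followed at −0.49 (−0.55 to −0.44), with 579.8 CPM (570.0 to 589.7) against 411.4 CPM (397.8 to 425.4). Chst1 was nearest to 0, at −0.13 (−0.22 to −0.03), with 144.7 CPM (139.8 to 149.6) against 132.6 CPM (125.0 to 140.6), and the intervals of its levels overlapped.

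**Figure D2:**
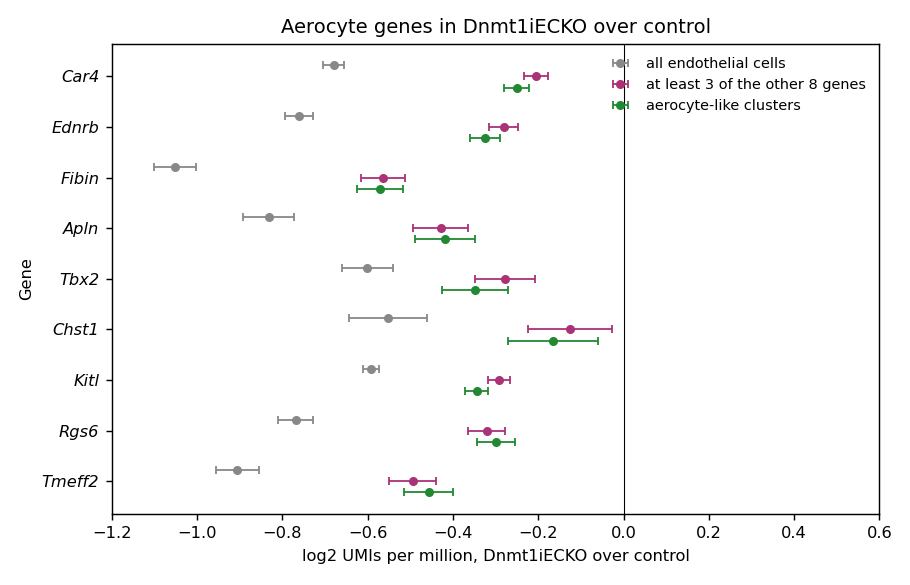
Log2 ratio of CPM, Dnmt1iECKO over control, for each of the 9 genes over all endothelial cells (grey), in cells with at least 3 of the other 8 genes (purple) and in the aerocyte-like clusters (green), with exact 95% intervals for counting error as bars. All points lie left of 0, and the purple and green points, between −0.57 and −0.13, sit closer to 0 than the grey one of the same gene, between −1.05 and −0.55.

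The aerocyte-like clusters, which were named through these genes and so are no independent support, gave log2 ratios from −0.57 (Fibin) to −0.16 (Chst1) with a median of −0.34, and all 9 intervals were below 0. The difference was less even across cells that detected few of the genes. Among cells with exactly 3 of the other 8 genes, 5 of the 9 genes were lower in Dnmt1iECKO with a median ratio of −0.01, and 1 interval lay below 0 and 2 above it. Among cells with exactly 4, 7 were lower with a median of −0.08, and 2 intervals lay below 0 and none above it. Among cells with 5, all 9 were lower, 8 with intervals below 0 and a median of −0.24. Among those with 6 or more, 8 of 9 were lower with a median of −0.21, and Chst1 stood at 181.7 CPM in control and 193.8 CPM in Dnmt1iECKO. The median at each of these 4 steps was nearer to 0 than the −0.29 of all cells with at least 3 of the other genes.

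**Figure D3:**
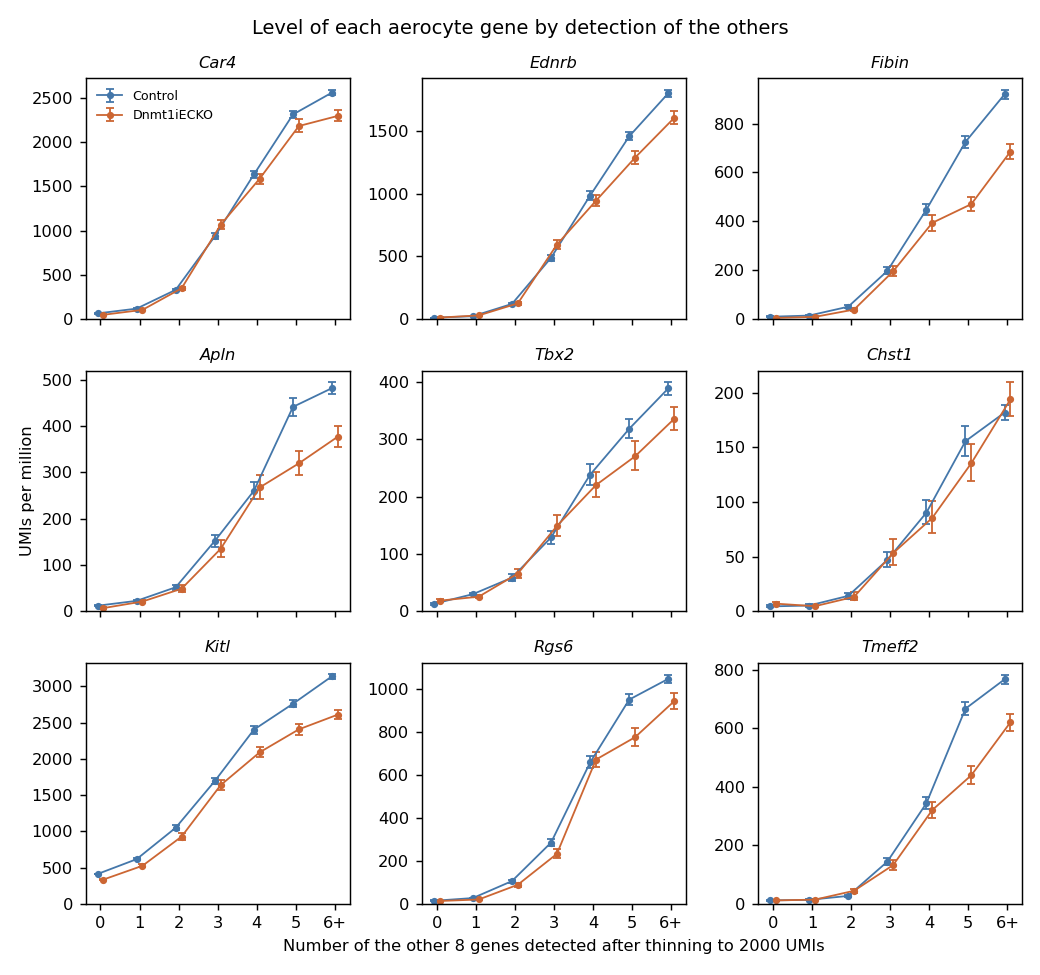
Level of each of the 9 aerocyte genes in CPM (linear axes from 0, each panel with its own scale) by the number of the other 8 genes detected in the cell after thinning to 2000 UMIs, in control (blue) and Dnmt1iECKO (orange), with exact Poisson 95% intervals. Levels were higher in cells with at least 3 of the other genes than in cells with none in both libraries, with Kitl already at 410.7 CPM in control and 334.3 CPM in Dnmt1iECKO cells with none of the others.

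Markers of other cells also differed between the cells with at least 3 of the 9 genes. The summed level of 6 alveolar type 2 markers was 914.1 CPM in control and 24.3 CPM in Dnmt1iECKO, and that of 8 fibroblast markers was 220.0 and 392.9 CPM. Those of 8 pericyte or smooth muscle markers were 188.6 and 136.7 CPM, and those of 5 platelet markers 129.3 and 196.1 CPM, whereas 6 alveolar type 1 markers summed to 846.5 and 844.5 CPM. No marker of these lists was at 0 in either library. Cells counted in no cluster of another cell type gave a median log2 ratio of −0.30 (−0.33 to −0.24) over the 9 genes, and otherwise the part of these markers in the results was not tested.

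Dnmt1 in the same cells was 48.9 CPM in control and 23.7 CPM in Dnmt1iECKO, a log2 ratio of −1.04 (−1.26 to −0.82), while the endothelial genes Cdh5 and Pecam1 had ratios of 0.10 and 0.01. Of 8 further aerocyte genes, none was past 1.5-fold higher and 1 was past it lower, at a median of −0.16. The lowest was Cdkn2b, an inhibitor of the cell cycle, at −0.68 (141.7 CPM in control and 88.8 CPM in Dnmt1iECKO), and the highest Prx, periaxin, at 0.03 (487.0 and 497.4 CPM).

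Genes of general capillary cells were, in the median, higher in aerocyte-marked cells of Dnmt1iECKO. Of 8, 2 were past 1.5-fold higher and none past it lower, beside 3.18% of 11064 genes higher and 3.31% lower. The median of the 8 was 0.33, beside −0.01 for all genes. The aerocyte-like clusters supplied 70.2% of the aerocyte-marked cells in control and 62.7% in Dnmt1iECKO. The part of the mix of cells in this median was not tested. Cxcl12, a chemokine, was 93.0 CPM in control and 145.8 CPM in Dnmt1iECKO (0.65, 0.55 to 0.75), and Aplnr, the apelin receptor, 20.2 and 30.8 CPM (0.61, 0.38 to 0.83). Cxcl12 was also among the 10 leading genes of the artery-like cluster, and its ratio in cells with none of the 9 genes was 0.20. Plvap, which forms the diaphragms of vessel pores, was lowest at −0.33, and Sema3c, at 909.6 and 897.8 CPM, was at −0.02. In cells with none of the 9 genes the same list had a median of −0.70, with 6 of 8 past 1.5-fold lower, beside 4.69% of 12166 genes lower and 6.63% higher. The endothelial genes Cdh5 (760.1 CPM in control and 538.8 CPM in Dnmt1iECKO) and Pecam1 (789.8 and 575.2 CPM) were also lower there, at −0.50 and −0.46. Whether the mix of cells in this group explains the lower list was not tested.

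The partners of these ligands and receptors were mixed. Edn1, an endothelin that binds Ednrb, was 62.3 CPM in control and 102.8 CPM in Dnmt1iECKO cells with at least 3 of the 9 genes, a log2 ratio of 0.72 (0.60 to 0.85). Ece1, which cuts endothelin into its active form, was 391.3 and 516.0 CPM, a ratio of 0.40 (0.35 to 0.45). Edn3 was detected at 4.17 and 3.39 CPM, with an interval from −0.95 to 0.31. Kit was at 0.24 and Vegfa at 0.14, and the VEGF receptors Kdr, Flt1 and Nrp1 at −0.07, −0.13 and −0.05. Of the 9 partners, 2 were past 1.5-fold higher (Edn1 and Aplnr) and none lower, at a median of 0.14. Aplnr and Kit are also in the general capillary list, and Kdr and Nrp1 in the further aerocyte list.

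Other members of the same families were mixed too. Of 5 further carbonic anhydrases with at least 20 UMIs, none was past 1.5-fold higher and 1 lower, at a median of 0.07, with Car2 highest at 0.29 and Car8 lowest at −0.97 (9.87 and 5.03 CPM). Of 3 further T-box factors none was past 1.5-fold, with Tbx5 highest at 0.54 and Tbx3, at 580.9 and 544.9 CPM, lowest at −0.09.

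Outside the aerocyte-like clusters the 9 genes differed by vessel type. In general capillary-like cells 4 of the 9 were lower in Dnmt1iECKO and the median log2 ratio was 0.02, with 1 interval below 0 and 1 above it. Car4 was higher there, 153.7 CPM in control and 173.9 CPM in Dnmt1iECKO (0.18, 0.06 to 0.29). In vein-like cells all 9 were lower, at a median of −0.89 and with 8 intervals below 0, and in artery-like cells all 9 were lower with 3 intervals below 0. In proliferating-like cells all 9 were lower, with 7 intervals below 0. In an unnamed cluster led by Adamts9, 7 were lower, with 6 intervals below 0. In the cluster led by AY036118, 5 were lower, with 3 intervals below 0. Car4 in artery-like cells was 147.7 and 27.3 CPM, and Tmeff2 in vein-like cells 57.7 and 14.5 CPM. Of the thinned endothelial cells in the vein-like cluster, 5.35% in control and 2.14% in Dnmt1iECKO had at least 3 of the 9 genes. In the artery-like cluster the shares were 9.71% and 2.53%. The part of such cells in these ratios was not tested, and shares over all genes were not computed for these classes.

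Several of the genes were also found in clusters named for, or led by genes of, other cells, and some of these clusters held Cdh5. Rgs6 stood at 476.4 CPM in control and 607.1 CPM in Dnmt1iECKO pericyte or smooth muscle-like cells, and Ednrb there at 346.4 and 205.6 CPM. Tbx2 was 130.1 and 129.6 CPM in fibroblast-like cells. Cdh5 was 374.6 CPM in control and 69.7 CPM in Dnmt1iECKO pericyte or smooth muscle-like cells, and 281.2 and 213.8 CPM in fibroblast-like cells. Whether endothelial RNA or doublets contributed to these levels was not tested. Car4 was 338.3 and 253.8 CPM in a Ptprc-positive cluster led by Kcnip4, Chil3 and Ear2. By contrast, in T cell-like cells the highest of the 9 was Ednrb at 4.77 CPM in control and Kitl at 11.7 CPM in Dnmt1iECKO.

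Over the 40 clusters of all cells, the genes with the pattern most like the sum of the 9 were Prickle2 (Pearson r = 0.93), Rasal2 (0.91), Arhgef12 (0.91), Meis1 (0.90) and Plpp1 (0.90) among 16504 genes, as a description over clusters that share 2 libraries. Cda had r = 0.23 with that sum. Its own 5 most like genes were Clvs1 (0.91), Gm2788 (0.88), Il11 (0.87), Dctd (0.86) and 4930511M06Rik (0.86).

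Cda was close to absent from aerocyte-marked cells of Dnmt1iECKO, a larger difference than in any of the 9 genes. The enzyme belongs to pyrimidine salvage, where it turns cytidine and deoxycytidine into their uridine forms, and it also inactivates cytidine analogs such as decitabine, a drug that blocks DNA methyltransferases. In cells with at least 3 of the 9 genes it had 218 UMIs in 173 of 1695 control cells and 4 UMIs in 4 of 582 Dnmt1iECKO cells. That is 9.28 CPM (8.09 to 10.6) against 0.468 CPM (0.127 to 1.20), a log2 ratio of −4.31 (−6.20 to −2.93). No control cell of this kind held more than 4 UMIs, and the thinned shares of cells with a UMI were 1.42% and 0.172%. By number of the 9 genes, Cda was 7.11 CPM in control and 0 in Dnmt1iECKO cells with 5 of them, and 11.3 and 0.267 CPM in cells with 6 or more. The ratio depended on how cells were classed: with another random draw of the thinned UMIs it was −3.15 (−4.30 to −2.20), and as a mean over cells −2.62. At full depth it was 0.081 (−0.13 to 0.29). There 17 deep cells of a cluster led by Hmga2, described with the other classes, held 256 of the 266 Cda UMIs of the 1063 Dnmt1iECKO cells with at least 3 of the genes, and 24 held 288 of the 581 UMIs in control. Without the clusters led by Hmga2 and by Btc, a setting chosen after seeing the data, the ratio at full depth was −3.61 (−4.68 to −2.71).

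The aerocyte-like clusters held no Cda UMI in Dnmt1iECKO. Their 1238 control cells held 189 UMIs, spread over 147 cells or 11.9% (10.1 to 13.8), at 11.3 CPM, and their 402 Dnmt1iECKO cells held 0. A count of 0 allows a share of up to 0.746% of cells with a UMI at a floor of 3 counts, or up to 0.913% by the exact interval, and does not limit the share of cells that express the gene. The exact interval of the log2 ratio ended at −4.19. The median depths were 12150 and 12700 UMIs. T cell-like cells, which should lack it, had 0 UMIs in 343 control cells, which allows a share of up to 0.875% of cells with a UMI at that floor and 1.07% by the exact interval, at a median depth of 8582 UMIs, and 4 UMIs in 1340 Dnmt1iECKO cells (0.311 CPM) at 8840. B cell-like cells had 2.47 CPM (0.673 to 6.33) and 0.999 CPM (0.367 to 2.17). The Dnmt1iECKO level in aerocyte-marked cells was within the range of these cells, and the control level lay above it.

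Cda was lower in Dnmt1iECKO in all 7 classes of blood vessel cells, the aerocyte-like clusters among them, with the interval below 0 in 6. In vein-like cells it was 10.1 CPM (34 UMIs) in control and 0.273 CPM (1 UMI) in Dnmt1iECKO, and in artery-like cells 9.45 CPM (11 UMIs) and 0.975 CPM (1 UMI). Proliferating-like cells had 9.02 and 1.63 CPM, and a cluster led by Adamts9 3.92 and 0.443 CPM. General capillary-like cells had 2.14 and 0.391 CPM. The control levels of these last and of the Adamts9 cluster lay within the interval of the control B cell-like cells. In the shallow cluster led by AY036118 the values were 6 UMIs and 1 UMI, with an interval from −7.06 to 1.51.

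Lower values were also found in cells of other lineages. Fibroblast-like cells without Cdh5 at the endothelial level had 30 UMIs in 271 control cells and 1 UMI in 367 Dnmt1iECKO cells, 3.89 and 0.116 CPM. Cells with alveolar type 1 markers and Cdh5 had 35 UMIs in 370 control cells and 0 in 130 Dnmt1iECKO cells, and the interval of the log2 ratio ended at −2.14. Mesothelial-like cells had 26 UMIs, 13 of them in 1 cell, in 50 control cells and 3 UMIs in 76 Dnmt1iECKO cells. In these mesothelial-like cells Dnmt1 had a log2 ratio of 0.23 (−0.12 to 0.59), and in the fibroblast-like cells −0.62 (−0.96 to −0.28).

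The 3 classes with the highest Cda in control were the ones led by Hmga2, lymphatic-like and led by Btc, and none had an interval below 0. Lymphatic-like cells had 58.8 CPM (36 UMIs in 36 cells) in control and 52.8 CPM (13 UMIs in 17 cells) in Dnmt1iECKO, a log2 ratio of −0.15 (−1.19 to 0.80). An unnamed cluster of very deep cells led by Hmga2 and Crabp1, with Cdh5 at 14.2 and 7.68 CPM, had 111.4 CPM in 125 control cells and 107.2 CPM in 199 Dnmt1iECKO cells, a ratio of −0.06 (−0.16 to 0.05). A shallow cluster led by Btc had 55.0 and 110.0 CPM, a ratio of 1.00 (0.52 to 1.49). Dnmt1 was 93.9 and 96.0 CPM in the cluster led by Hmga2.

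**Figure D4:**
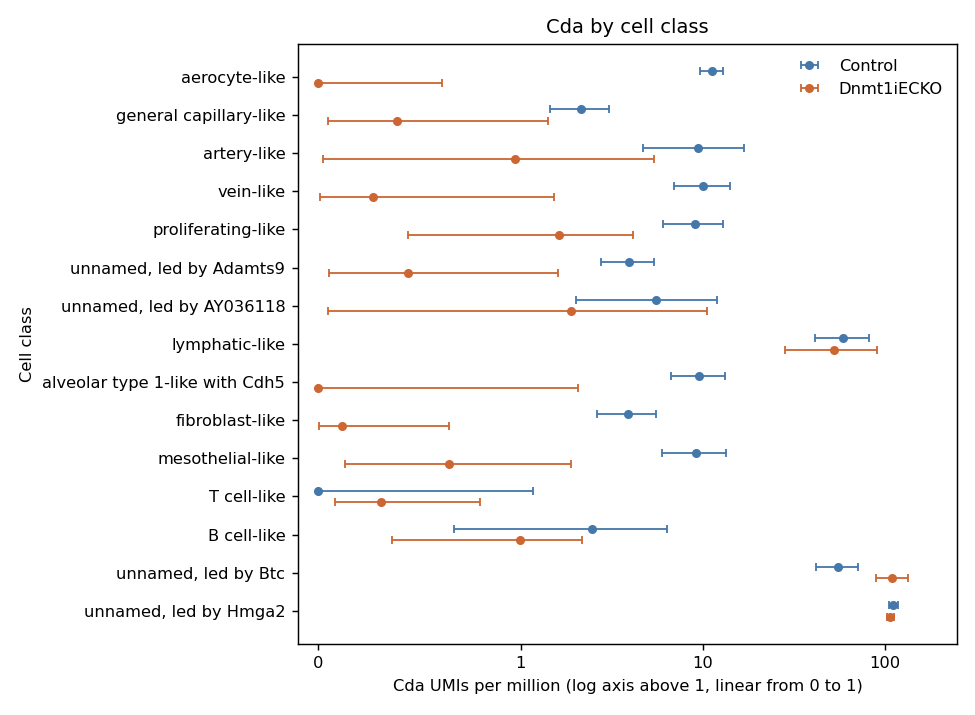
Cda in CPM (log axis above 1, linear from 0 to 1) by cell class in control (blue) and Dnmt1iECKO (orange), with exact Poisson 95% intervals. The Dnmt1iECKO point lies below control in the 7 blood vessel classes at the top, from 11.3 and 0 CPM in aerocyte-like cells, and next to it in lymphatic-like cells and in the cluster led by Hmga2 (111.4 and 107.2 CPM).

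Some of these deep cells carried a UMI of Cdh5 or Pecam1 and so counted as endothelial. In the cluster led by Hmga2 these were 55 control and 61 Dnmt1iECKO cells, 0.993% and 2.53% of the endothelial cells, and they held 55.0% and 93.1% of all endothelial Cda UMIs. Over all endothelial cells Cda was 13.2 CPM (12.4 to 14.1) in control against 18.4 CPM (17.1 to 19.8), a log2 ratio of 0.48 (0.33 to 0.62). With both of those clusters left out, it was 6.25 and 0.903 CPM, a ratio of −2.79 (−3.39 to −2.25). Once each cluster of another cell type was dropped, it was 7.54 and 1.15 CPM, a ratio of −2.72 (−3.38 to −2.12).

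The sign also depended on the rule among cells with none of the 9 genes. There Cda was 23.2 CPM in control and 41.4 CPM in Dnmt1iECKO (0.84, 0.66 to 1.01), and 8.51 and 2.55 CPM (−1.74, −2.64 to −0.94) once every cluster of another type was dropped. In cells with at least 3 of the 9 genes that setting left 195 UMIs in control and 1 UMI in Dnmt1iECKO.

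The other genes of pyrimidine salvage were centred near 0. Of 11 with at least 20 UMIs in cells with at least 3 of the 9 genes, 1 was past 1.5-fold higher and none lower, at a median of −0.003. The highest was Tk1, a thymidine kinase, at 0.78 (24 and 15 UMIs, interval −0.26 to 1.77), and the lowest Dck, deoxycytidine kinase, which phosphorylates deoxycytidine, at −0.52 (122 and 31 UMIs, interval −1.14 to 0.06).

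Cda overlaps no other gene of the matrices. Its 3 nearest protein-coding genes on either side, chosen after the value of Cda was seen, were read in cells with at least 3 of the 9 genes. Ddost was at −0.11, Pink1 at −0.38 (−0.55 to −0.20), Mul1 at −0.62 (−1.02 to −0.25) and Camk2n1 at 0.38 (0.27 to 0.49). Kif17 had 4 and 3 UMIs, and Fam43b had 0 in both libraries.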

How the data were processed

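Single-cell RNA-seq (10x Genomics GEM-X 3′ v4) of 1 control and 1 Dnmt1iECKO library was analysed. The authors aligned and counted the reads with Cell Ranger 9.0.1 against mm10, and the values are UMI counts per gene and cell, as deposited. Settings of strand are not given in the sources used here. Cells with at least 500 genes and at most 10% mitochondrial UMIs were kept, and the highest doublet scores (Scrublet in scanpy 1.11.5) were removed at 0.4% per 1000 cells. Each cell was thinned to 2000 UMIs to count detected genes. Levels used all UMIs. Intervals were exact (Poisson, Clopper-Pearson and conditional binomial; scipy 1.17.1) and cover counting error only, and they were tested on simulated data. Clusters (40; 30 components, 20 neighbours, Leiden resolution 1.0, 2000 variable genes without the 10 genes and Dnmt1) were named from markers by a rule set after the clusters were seen. That rule asked for at least 3 markers, and the names may differ from those of the study. Likeness was Pearson's r of log2 of CPM with 10 added. The 10 genes and the lists were chosen with earlier results of these data known. Named genes were the 10, Dnmt1, Cdh5 and Pecam1, the 5 most like, the partners, and the highest and lowest of each other list; members were counted from 20 UMIs and all genes from 100. Alternatives changed the filters, doublets, endothelial rule, class, thinning and scaling.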

Additional observations from a re-analysis of the deposited data

Results flagged for a closer look

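In 3 genes the difference between the libraries had opposite directions, with counting intervals on opposite sides of 0, in cells with at least 3 and in cells with 0 of the aerocyte genes, and these contrasts were not tested. Ednrb also differed in direction, at −0.28 and 0.17, but the latter interval (−0.12 to 0.47) included 0. For Tbx2 the log2 ratio of Dnmt1iECKO over control was −0.28 in cells with at least 3 of the other 8 genes and 0.50 (13.2 and 18.7 CPM) in cells with 0. For Chst1 it was −0.13 and 0.64, the latter at 4.55 and 7.09 CPM. For Cda it was −4.31 in cells with at least 3 of the 9 genes and 0.84 in cells with 0, and the latter was −1.74 without clusters of other cell types. That setting was not computed for Tbx2 and Chst1 in cells with 0. Cells with 0 of the 9 genes also differed in other markers. Pericyte or smooth muscle markers summed to 195.8 CPM in control and 419.4 CPM in Dnmt1iECKO, and alveolar type 2 markers to 11160 and 6777 CPM. Cdh5 was 760.1 and 538.8 CPM there, and the part of this in the contrasts was not tested.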

How the results depend on the processing

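No paired analysis was possible because each group is 1 library, and no replicate could be left out. Each of the 9 genes stayed below control in cells with at least 3 of the others in 162 of 162 alternative values. The log2 ratio of the class share was −0.48 with aerocyte-like clusters as the class. The median of the 9 genes was −0.25 without doublet removal, −0.38 with at least 2 genes and −0.51 at full depth. Cda in the class was 0.081 at full depth and −2.62 as a mean over cells. Cda over endothelial cells, 0.48 as reported, was −2.71 without cells holding Epcam, Cspg4 or Myh11, −0.73 with both Cdh5 and Pecam1 required, −2.72 once clusters of other types were dropped, −0.75 as a mean over cells, and −2.79 without the clusters led by Hmga2 and by Btc, which was chosen after seeing the data. Of 67 alternative values of these 4 results, 56 lay within the counting interval, 5 lay outside it with the same sign and 6 reversed. For single genes and shares of genes, 174 of 267 did, 93 lay outside and 0 reversed. Counting genes from 10 UMIs in place of 100, the shares past 1.5-fold higher and lower were 15.01% and 5.99% over endothelial cells, 7.86% and 11.0% in cells with at least 3 of the 9 genes, and 11.8% and 9.50% in cells with none. With 1 library per group, differences between mice, libraries and genotypes cannot be told apart.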
